A study of Caenorhabditis elegans with 6 samples.

Results

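The genes described here encode the proteins that make microRNAs and carry out microRNA silencing in Caenorhabditis elegans. They are drsh-1, pash-1, dcr-1, alg-1, alg-2, ain-1, ain-2, nhl-2 and cgh-1, chosen by gene symbol, and all 9 were measured, by 17 of the 22548 probe sets on the array. The table names 17430 genes through probe sets with a single gene. Of the 9 genes, 6 had several probe sets and 3 had 1 probe set each. RNA came from whole embryos, of mixed stages by the stage label, on 6 Affymetrix arrays in 2 groups. The free-text descriptions conflict with that label: they name early nuclear cycles for mutant replicates 1 and 2 and cellularisation for mutant replicate 3 and all wild type arrays, terms that are not worm stages, and they were set aside. The mutant group (3 arrays) carried mir-35-41(nDf50), which removes the mir-35 to mir-41 microRNA cluster, in the strain named VT2935; by the labels it lacks nEx1187, whose name is that of an extrachromosomal array. The wild type group was N2 (3 arrays). Plates held added egg yolk, and in both groups a shift from 20 to 25 °C took place 24 hours ahead of harvest, so every value below is from warm-shifted cultures.

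As background, primary microRNA transcripts are cut in the nucleus by Drosha with its RNA-binding partner, and the hairpin that is released is cut again in the cytoplasm by Dicer. An Argonaute protein holds the mature microRNA and pairs it with messenger RNAs, and a GW182-type protein bound to the Argonaute recruits enzymes that shorten the tail, remove the cap and block translation. In worms drsh-1 and pash-1 encode Drosha and its partner, dcr-1 encodes Dicer, and alg-1 and alg-2 encode the main microRNA Argonautes. The GW182-type proteins are encoded by ain-1 and ain-2, and nhl-2 and cgh-1 encode a TRIM-NHL protein and a DEAD-box helicase that act as cofactors of silencing. Early embryos hold large amounts of the mir-35 family, and nhl-2 has been tied to that family as a target in earlier work. By a gene table of assembly WBcel235, alg-1 and ain-1 lie on chromosome X, alg-2 on chromosome II, dcr-1, nhl-2 and cgh-1 on chromosome III, and drsh-1, pash-1 and ain-2 on chromosome I.

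The values are normalized intensities, which compare 1 probe set between arrays and not 1 gene with another. Median intensity was 119.1 to 127.1 on the mutant arrays and 113.9 to 121.4 on the wild type arrays. All members were above the brightest of 5 yeast control probe sets (5.34 in the mutant and 5.42 in wild type, log2 means), the lowest single log2 value of a member being 5.99. The log2 values of mutant replicate 1 correlated at 0.9894 and 0.9905 with mutant replicates 2 and 3, which correlated at 0.9978 with each other, and at 0.9858 to 0.9880 with the wild type arrays. Mutant replicates 2 and 3 correlated at 0.9781 to 0.9832 with the wild type arrays, which correlated at 0.9889 to 0.9943 among themselves. Of 20 maternal transcripts of the early embryo all were brighter than the yeast controls, as were 14 of 16 first zygotic transcripts, whereas 8 of 11 sperm genes were not. Most genes of adult yolk and adult cuticle were also brighter than these controls, and 3 of 9 were not. No label says that replicates came from separate cultures, so p-values reflect the spread among these 6 arrays alone, and part or all of it may be technical. In RNA of whole embryos, fewer cells that express a gene and less RNA per cell cannot be told apart.

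The first question was whether embryos without the cluster hold different amounts of messenger RNA for the factors that make and use microRNAs. None of the 17 probe sets passed an adjusted p of 0.05 in either direction (limma, Benjamini-Hochberg adjustment over all probe sets), where 2.83% of all probe sets rose and 0.648% fell. Differences of the 17 ran from -0.29 to 0.16 on the log2 scale with a median of -0.03, and those of all probe sets from -2.67 to 3.93 with a median of -0.05. The smallest adjusted p among the members was 0.227, and 1 of the 17 had an unadjusted p under 0.05, against 19.4% of all probe sets. With 17 probe sets a share of calls like that of the whole array would be less than a single one, so the absence of calls is close to the background. The intervals below give the sizes of change that these arrays leave room for.

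**Figure D1:**
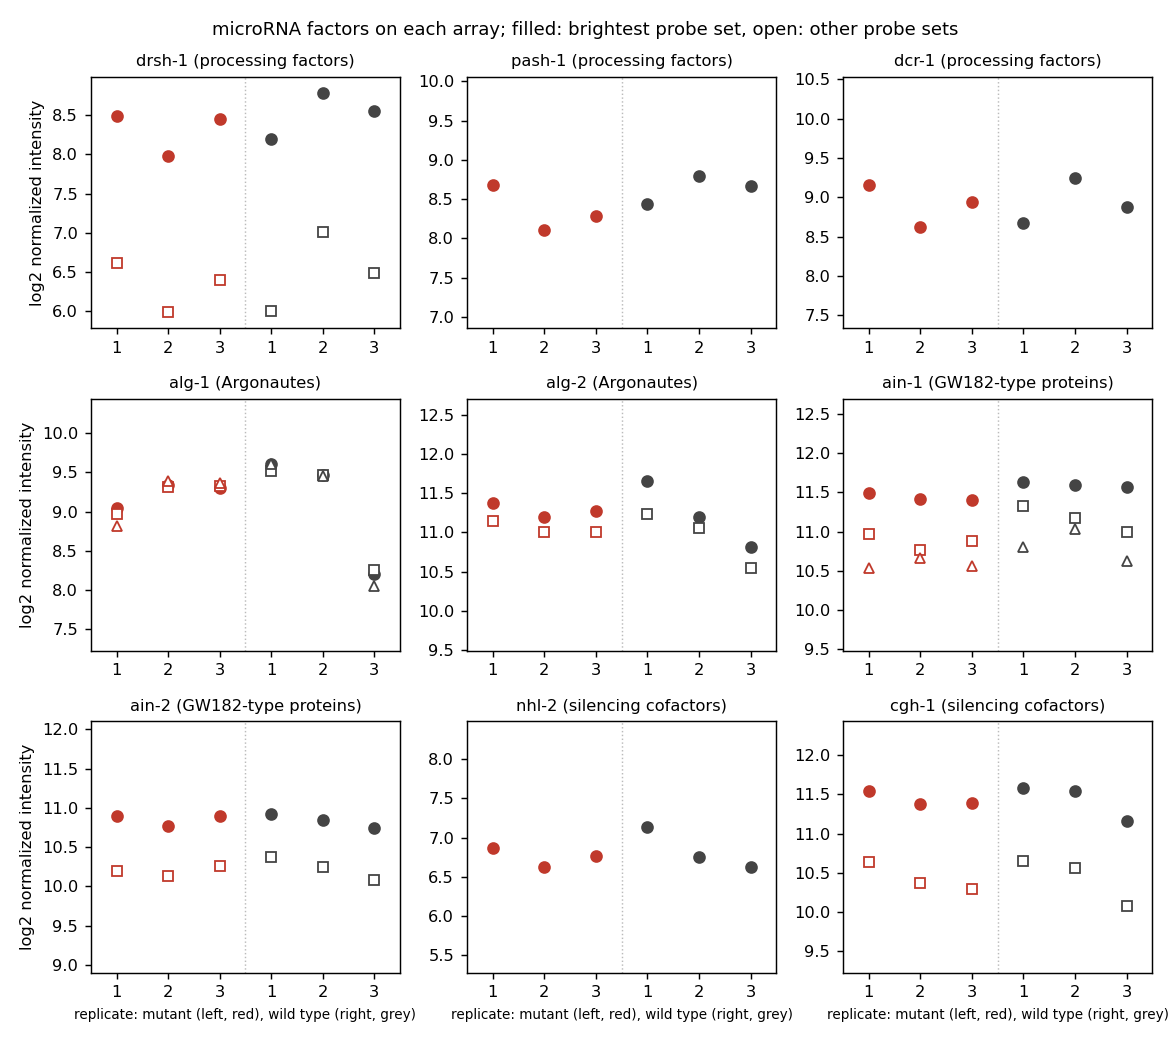
Log2 normalized intensity of every probe set of the 9 genes on each array (y axis, each panel spanning the same range of log2 units), with mutant replicates 1 to 3 at the left in red and wild type replicates 1 to 3 at the right in grey; each point is 1 array, and filled points are the brightest probe set of the gene. The groups overlap for 15 of the 17 probe sets, the exceptions being 2 of ain-1, and the wild type replicate 3 points of alg-1 lie far below the others.

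The nuclear step was measured through drsh-1 and pash-1. The brighter probe set of drsh-1, the RNase III enzyme that cuts primary transcripts, had normalized intensities of 360, 252 and 351 in mutant replicates 1, 2 and 3, against 293, 441 and 377 in wild type replicates 1, 2 and 3. Mutant replicate 2 was the lowest array and wild type replicate 2 the highest, and the groups overlapped. By limma the mutant minus wild type difference was -0.20 log2 units (SE 0.20, 3 arrays in each group, adjusted p = 0.628), with a 95% interval from -0.67 to 0.26. Its dimmer probe set gave 98.6, 63.7 and 84.5 in the mutant and 63.8, 129 and 89.8 in wild type, with a difference of -0.16. The same arrays were the extremes there, and the largest gap between the centred values of the 2 probe sets on any array was 0.22 log2 units. The brighter set was designed to a sequence name that the gene table no longer lists, F26E4.13, and is assigned to drsh-1 by the deposited symbol.

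For pash-1, the partner that holds the hairpin for Drosha, the single probe set read 411, 276 and 313 in the mutant and 348, 447 and 406 in wild type. Mutant replicates 2 and 3 lay below all wild type arrays and mutant replicate 1 lay above wild type replicates 1 and 3. The mean was 8.36 ± 0.29 in the mutant and 8.64 ± 0.18 in wild type (log2, SD, n = 3 each), a difference of -0.28 (SE 0.17, limma adjusted p = 0.432, interval -0.68 to 0.12). Of the 9 genes it had the largest difference on its brightest probe set. The call depended on the arrays: without both arrays numbered 1 the difference of pash-1 was -0.54 (limma adjusted p = 0.0278), and with array weights, which gave mutant replicate 1 the lowest weight, it was -0.45 (adjusted p = 0.0388). Under these 2 settings 3508 and 4195 of all probe sets passed, against 785 with all arrays weighted alike. Over its 16 alternatives the adjusted p of pash-1 ran from 0.0278 to 0.794.

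The single probe set of dcr-1, the enzyme of the cytoplasmic cut, had 567, 393 and 492 in the mutant and 408, 604 and 471 in wild type. Mutant replicate 1 and wild type replicate 2 were the high arrays and mutant replicate 2 and wild type replicate 1 the low ones. The difference was -0.03 (SE 0.19, limma adjusted p = 0.955), and its interval from -0.47 to 0.42 leaves room for a change of up to 1.33-fold higher or 1.39-fold lower. The probe sets of pash-1 and dcr-1 are of the kind that Affymetrix marks as shared between transcripts.

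The 3 processing genes shared their extreme arrays. All 4 of their probe sets were highest on wild type replicate 2 and lowest on mutant replicate 2. Over all 22548 probe sets wild type replicate 2 was the highest array for 3288. How many were lowest on mutant replicate 2 was not counted. Relative to each gene's mean over the 6 arrays, drsh-1, pash-1 and dcr-1 stood at 0.14, 0.18 and 0.23 on mutant replicate 1 and at -0.43, -0.39 and -0.30 on mutant replicate 2. On wild type replicate 1 they stood at -0.32, -0.06 and -0.24, and on wild type replicate 2 at 0.48, 0.31 and 0.32. The range between arrays of 1 genotype was thus larger than the difference between the genotypes for each of them. The size of that difference depended on the arrays used: without both arrays numbered 1 it was -0.45 and -0.55 for the probe sets of drsh-1 and -0.28 for dcr-1 (limma adjusted p = 0.141, 0.135 and 0.318), beside -0.54 for pash-1. With array weights it was -0.31, -0.42 and -0.20 (limma adjusted p = 0.262, 0.232 and 0.418), so all 4 probe sets were lower in the mutant under both settings and only that of pash-1 passed. With single arrays left out the brighter drsh-1 probe set ran from -0.36 to -0.04, and dcr-1 from -0.16 to 0.13. The profiles of drsh-1 and dcr-1 differed by a root mean square of 0.11 log2 units, the third closest of 36 pairs among the 9 genes, and drsh-1 and alg-1 were the least alike pair, at 0.62. Next among the processing genes, pash-1 with dcr-1 (0.15) and drsh-1 with pash-1 (0.16) ranked 9 and 11. Pairs across roles, such as alg-2 with cgh-1 (0.10) and ain-2 with nhl-2 (0.11), ranked closer. Over 6 arrays these likenesses are a description, since all genes share the same arrays.

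The Argonaute genes did not follow that profile. The gene alg-1 was read by 3 probe sets. The brightest had 526, 647 and 630 in mutant replicates 1, 2 and 3, against 781, 703 and 296 in wild type replicates 1, 2 and 3. The second had 501, 636 and 643 in the mutant and 733, 705 and 307 in wild type, and the third 452, 669 and 663 in the mutant and 774, 700 and 264 in wild type. On each probe set wild type replicate 3 was the lowest of all 6 arrays and wild type replicate 1 the highest, so the mutant arrays lay inside the wild type range. The 3 probe sets, whose centred values were at most 0.19 log2 units apart on any array, placed wild type replicate 3 at 2.51-fold, 2.34-fold and 2.79-fold below the mean of the other two wild type arrays.

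A gap of that size was uncommon. Of all 22548 probe sets 41, or 0.182%, had wild type replicate 3 at least 1 log2 unit below the mean of the other two wild type arrays, and 3 of the 41 were those of alg-1. Over all probe sets the median of that gap was 0.00. The within-group SD of the 3 alg-1 probe sets was 0.56, 0.52 and 0.65, which 1.04%, 1.51% and 0.51% of all probe sets reached. This feature of alg-1 was picked out after its values were seen.

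The mutant minus wild type difference of alg-1 had the widest intervals of the 9 genes. It was 0.13 on the brightest probe set (SE 0.35, limma adjusted p = 0.88) and 0.12 and 0.16 on the others, and the widest interval ran from -0.81 to 1.14. Without wild type replicate 3 the sign turned on all 3 probe sets, to -0.31, -0.29 and -0.33 (limma adjusted p = 0.331, 0.396 and 0.485). On the mutant arrays alone alg-1 was lower on replicate 1 than on the mean of replicates 2 and 3, with differences of -0.28, -0.35 and -0.56. The marker lists of body wall muscle (12 genes) and neurons (13 genes) were also lowest on replicate 1 among the mutant arrays. The muscle list had centred medians of -0.29, 0.31 and 0.28 in the mutant and 0.05, -0.10 and -0.27 in wild type (replicates 1, 2 and 3). Its summed intensity was 26070 to 35261 in the mutant and 27630 to 31143 in wild type, and all 12 genes were brighter than the yeast controls. The neuron list had centred medians of -0.30, 0.32 and 0.29 in the mutant and -0.29, -0.11 and -0.07 in wild type, with summed intensities of 8486 to 12032 in the mutant and 7156 to 8025 in wild type, and 2 of its 13 genes were not brighter than the yeast controls. The intestine list was lowest on the same mutant array by less, at -0.07, 0.12 and 0.15 in the mutant and -0.04, -0.31 and -0.13 in wild type. So were the lists of adult yolk and cuticle (-0.12, 0.09 and -0.04 in the mutant) and late embryo cuticle (-0.01, 0.05 and 0.04). The maternal, first zygotic and germline lists were instead highest on replicate 1 among the mutant arrays. On the wild type arrays alg-1 stood at 0.44, 0.32 and -0.96. The muscle list ran in the same order on these arrays over a smaller range, and the neuron and intestine lists did not. The part of these lists in the values of alg-1 was not tested.

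The paralogue alg-2, which acts with alg-1 in embryos, moved the same way on wild type replicate 3 by a smaller amount. Its brighter probe set had 2643, 2332 and 2478 in the mutant and 3219, 2330 and 1803 in wild type, and its dimmer one 2261, 2056 and 2068 in the mutant and 2400, 2120 and 1494 in wild type. Wild type replicates 1 and 3 were again the extremes, and the mutant arrays lay between them. Wild type replicate 3 was 1.52-fold and 1.51-fold below the mean of the other two wild type arrays, where alg-1 gave at least 2.34-fold. The difference of alg-2 was 0.06 (SE 0.20, limma adjusted p = 0.908, interval -0.42 to 0.54) and 0.11 on the dimmer probe set, and it was -0.14 and -0.08 without wild type replicate 3.

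Among 11567 other genes with a mean above the yeast controls, the closest to alg-1 across the 6 arrays were sea-2, mxl-3 and W07E11.1, with root mean square differences of 0.17, 0.17 and 0.18 in centred log2 values. The log2 values of sea-2 were 9.42, 9.74 and 9.82 in the mutant and 9.98, 9.61 and 8.91 in wild type. Like alg-1, it was lowest on wild type replicate 3 and highest on wild type replicate 1. Those of mxl-3, which encodes a helix-loop-helix factor, were 9.81, 10.35 and 10.06 in the mutant and 10.34, 10.32 and 9.41 in wild type. For W07E11.1 they were 10.44, 10.60 and 10.64 in the mutant and 11.14, 10.74 and 9.99 in wild type. None of these 3 passed the threshold (limma adjusted p = 0.796, 0.944 and 0.922).

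**Figure D2:**
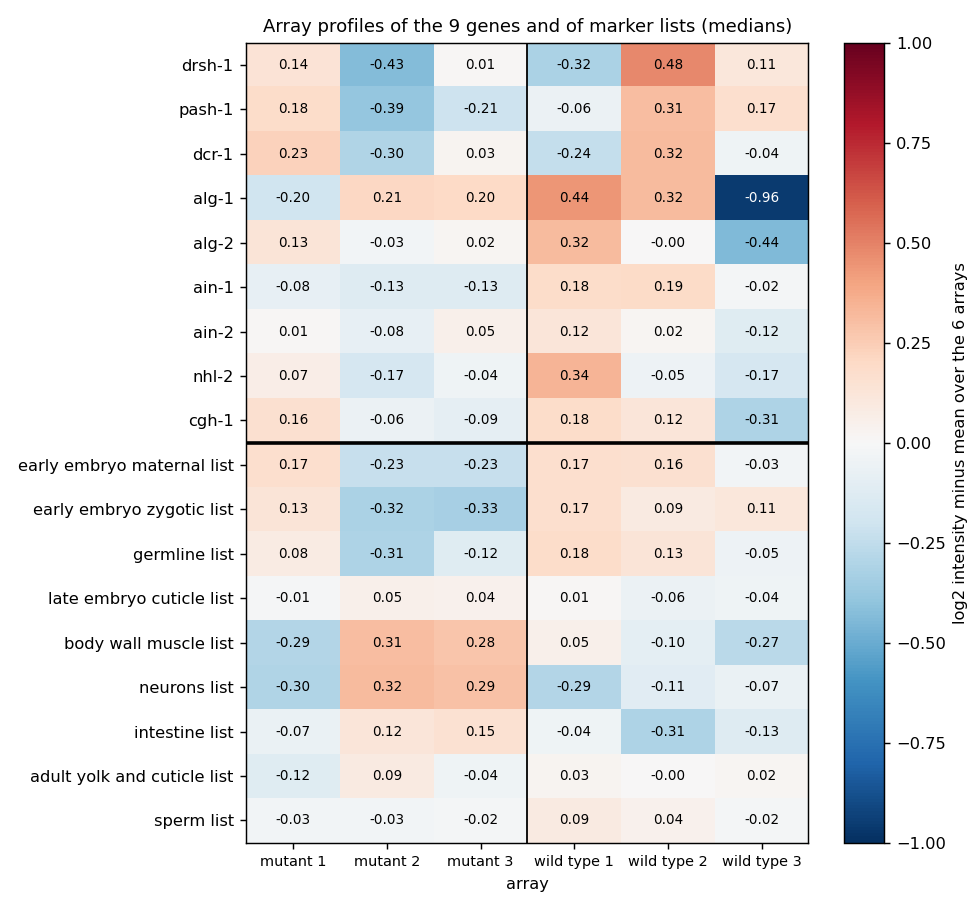
Log2 intensity minus the mean over the 6 arrays (colour scale and printed values, in log2 units) for the 9 genes, averaged over their probe sets (above the line), and for 9 marker lists as medians over their genes (below the line), on mutant arrays 1 to 3 (left) and wild type arrays 1 to 3 (right). The processing genes share high values on wild type 2 and low values on mutant 2, alg-1 reaches -0.96 on wild type 3, and ain-1 is below 0 on all mutant arrays.

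The GW182-type genes varied least. For ain-1, which couples the Argonaute to the enzymes of silencing, the brightest of 3 probe sets had 2872, 2730 and 2695 in the mutant and 3175, 3085 and 3034 in wild type. All mutant arrays lay below all wild type arrays. The mean was 11.43 ± 0.05 in the mutant and 11.60 ± 0.03 in wild type (log2, SD, n = 3 each), and the within-group SD of 0.04 was exceeded or matched by 97.1% of all probe sets. The difference was -0.16 (SE 0.08, limma adjusted p = 0.312, interval -0.35 to 0.02), so at most 1.27-fold lower and 1.01-fold higher by that interval. Its other probe sets were less tight, with within-group SDs of 0.14 and 0.15, which 54.4% and 50.7% of all probe sets reached. Their intervals leave room for 1.48-fold and 1.43-fold lower. The centred values of the 3 probe sets were up to 0.25 log2 units apart, the largest such gap among the members.

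The second probe set of ain-1 had 1999, 1735 and 1884 in the mutant and 2569, 2308 and 2030 in wild type, again without overlap. Its difference was -0.29 (SE 0.11, limma adjusted p = 0.227, interval -0.57 to -0.02), the 1 member probe set with an unadjusted p under 0.05. The third had 1485, 1619 and 1512 in the mutant and 1793, 2088 and 1580 in wild type, where mutant replicate 2 lay above wild type replicate 3, and a difference of -0.23 (limma adjusted p = 0.346). The first and second were the only 2 of the 17 member probe sets whose groups did not overlap, both lower in the mutant. All mutant arrays lay below all wild type arrays for 13.3% of all probe sets. All 3 probe sets of ain-1 were below 0 under each of the alternatives run, from -0.38 to -0.13, and none passed the threshold under any (adjusted p of 0.0508 to 0.627).

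The other GW182-type gene, ain-2, had 1895, 1746 and 1914 in the mutant and 1937, 1841 and 1707 in wild type on its brighter probe set, which is of the shared kind. On the other it had 1173, 1122 and 1226 in the mutant and 1322, 1217 and 1080 in wild type. The arrays of both groups were interleaved. The differences were 0.02 (SE 0.09, limma adjusted p = 0.935) and -0.04 (SE 0.10, adjusted p = 0.889), and the interval of the first, -0.19 to 0.23, leaves room for at most 1.17-fold higher or 1.14-fold lower. On the brightest probe sets this was the narrowest range of the 9 genes after that of ain-1.

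Of the cofactors, nhl-2 had 117, 98.8 and 108 in mutant replicates 1, 2 and 3 and 140, 107 and 98.9 in wild type replicates 1, 2 and 3. Its single probe set, of the shared kind, was highest on wild type replicate 1, and mutant replicate 2 and wild type replicate 3 were the lowest and nearly equal. The wild type SD of 0.26 and the mutant SD of 0.12 exceeded the difference of -0.09 (log2, n = 3 each, limma adjusted p = 0.802). With all arrays, an increase in the mutant of more than 1.20-fold lies outside the interval from -0.44 to 0.26. That interval covers only the spread between these arrays. With single arrays left out the difference ran from -0.19 to 0.06, the latter without wild type replicate 1. The probe set, at log2 values of 6.63 to 7.13, was among the dimmest 50% of all probe sets. Whether its dimness made the difference smaller was not tested. Protein was not measured.

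For cgh-1, a helicase of P bodies and germ granules that also protects maternal messenger RNAs, the brighter probe set had 2982, 2661 and 2685 in the mutant and 3060, 2996 and 2296 in wild type. The other had 1595, 1327 and 1253 in the mutant and 1611, 1505 and 1083 in wild type. On both, wild type replicate 3 was the lowest array and wild type replicate 1 the highest, as for alg-1 and alg-2. The differences were 0.01 (SE 0.13, limma adjusted p = 0.987) and 0.00 (SE 0.17, adjusted p = 0.991), with intervals from -0.31 to 0.32 and from -0.41 to 0.42. The profiles of alg-2 and cgh-1 were the closest of the 36 pairs, at a root mean square difference of 0.10. Wild type replicate 3 was the lowest array for 9 of the 17 member probe sets, those of alg-1, alg-2, ain-2 and cgh-1, and for 16.2% of all probe sets.

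**Figure D3:**
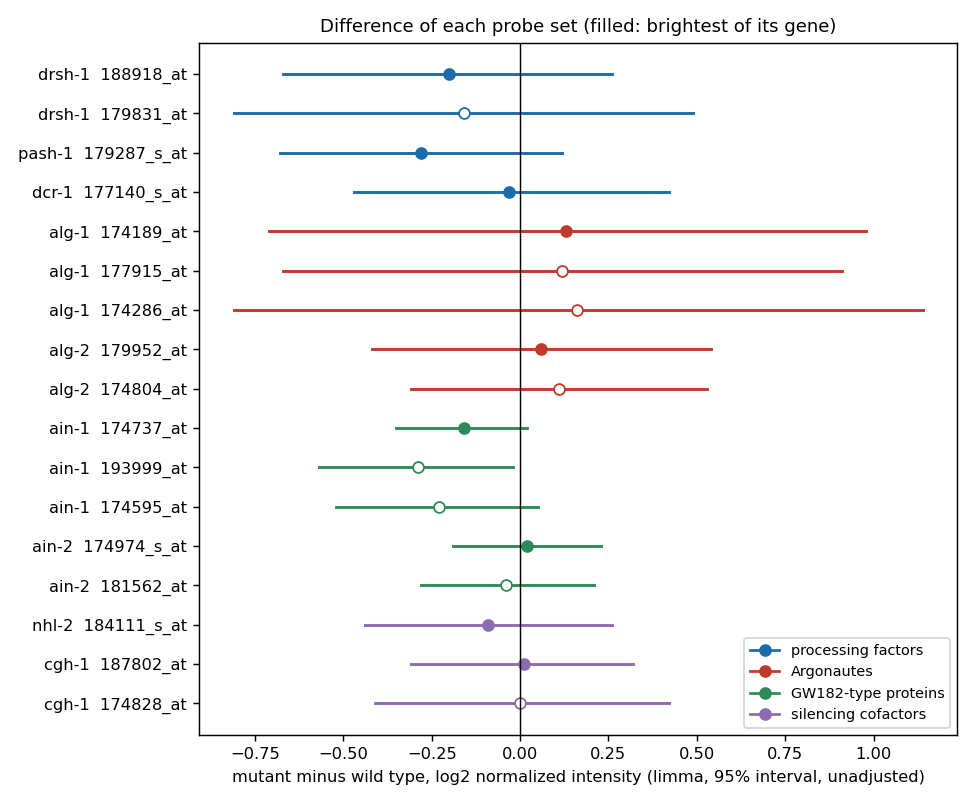
Mutant minus wild type difference in log2 normalized intensity (x axis, limma, points) with its 95% interval (bars, not adjusted for the number of probe sets) for the 17 probe sets (y axis), coloured by role; filled points are the brightest probe set of each gene. The intervals of alg-1 are the widest and those of ain-1 and ain-2 the narrowest, and 1 interval, that of the second ain-1 probe set, stays below 0.

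Lists of genes that work beside these factors were described in the same way, on the brightest probe set of each gene. Of 63 measured genes on 6 lists 1 rose and none fell, against 3.02% of all 17430 genes that rose and 0.631% that fell. The median difference of the 63 was -0.12 and that of all genes -0.05, and 47 of the 63 were below 0, against 60.7% of all genes. The gene that rose was lin-41, a TRIM-NHL relative of nhl-2 and a known target of the let-7 microRNA, on a list of 4 further NHL genes with a median of 0.17. Its intensities were 128, 151 and 121 in the mutant and 70.4, 82.0 and 67.2 in wild type. The groups did not overlap. Its log2 difference was 0.86 (SE 0.12, limma adjusted p = 0.018). Its other probe set, also of the shared kind, gave 0.04 (adjusted p = 0.867), and leaving out any single array other than mutant replicate 1 ended the call, with adjusted p-values from 0.0504 to 0.077. With the mean of its probe sets the difference was 0.45 and the call was lost (adjusted p = 0.0624).

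The genes that work next to Dicer and the further Argonautes alg-5 and ergo-1 had a median of -0.26 over 10 measured members, 9 of them below 0. None passed under the main setting. With array weights 4 of the 10 fell, as did 4 without both arrays numbered 1 and 2 without mutant replicate 1. At these settings 18.6%, 15.6% and 10.7% of all probe sets passed in either direction. The largest differences were those of eri-5 and eri-1, which act in the making of small interfering RNAs, at -0.41 and -0.32 (limma adjusted p = 0.227 and 0.252). A second probe set of eri-1 gave -0.16 (adjusted p = 0.514). Both eri-5 and eri-1 passed with array weights (limma adjusted p = 0.0184 and 0.0404). They also passed without both arrays numbered 1 (limma adjusted p = 0.0197 and 0.0499). The log2 values of eri-5 were 7.39, 6.88 and 6.89 in the mutant and 7.63, 7.38 and 7.39 in wild type, so mutant replicate 1 overlapped wild type. Without mutant replicate 1 the difference of eri-5 was -0.58 (limma adjusted p = 0.0283), a setting where 10.7% of all probe sets passed. With any other single array left out eri-5 did not pass (adjusted p of 0.329 to 0.544). The centred median of this list was 0.13, -0.32 and -0.17 in the mutant and 0.09, 0.16 and 0.08 in wild type. Of the marker lists, 3 ran likewise. The maternal transcripts of the early embryo stood at 0.17, -0.23 and -0.23 in the mutant and 0.17, 0.16 and -0.03 in wild type, with summed intensities of 24243 to 30448 in the mutant and 26786 to 32280 in wild type. The first zygotic transcripts stood at 0.13, -0.32 and -0.33 in the mutant and 0.17, 0.09 and 0.11 in wild type, with summed intensities of 5793 to 9115 in the mutant and 8638 to 8974 in wild type. The germline genes stood at 0.08, -0.31 and -0.12 in the mutant and 0.18, 0.13 and -0.05 in wild type, with 15 of its 16 genes brighter than the yeast controls and summed intensities of 6242 to 8163 in the mutant and 6480 to 7940 in wild type. The part of these lists in the values of the Dicer partners was not tested.

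On a list of 10 measured genes linked to the tailing and decay of microRNAs and their precursors none passed under the main setting. With array weights 1 rose and 3 fell, where 18.6% of all probe sets passed. Without both arrays numbered 1 the list had 1 that rose and 2 that fell, where 15.6% passed. The exonuclease gene disl-2, the relative of mammalian DIS3L2, which degrades uridylated let-7 precursors in mammals, had log2 values of 9.53, 9.01 and 9.11 in the mutant and 8.54, 8.29 and 7.94 in wild type. The groups did not overlap and were 0.96 apart (SE 0.19, limma adjusted p = 0.0506), at the edge of the threshold, and it passed under 9 of 16 alternatives. The uridylyltransferase-family gene pup-3 had 7.59, 6.96 and 7.06 in the mutant and 7.66, 7.73 and 7.59 in wild type, a difference of -0.46 (limma adjusted p = 0.204). It was -0.65 without mutant replicate 1 (adjusted p = 0.0119), a setting where 10.7% of all probe sets passed. With any other single array left out pup-3 did not pass (adjusted p of 0.276 to 0.503). The list median was -0.15.

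Downstream of the GW182-type proteins, none of 14 genes of the CCR4-NOT complex, other deadenylases and poly(A)-binding proteins passed under the main setting. Their median was -0.12, with a range from -0.41 to 0.15. With array weights 3 of the 14 fell, where 18.6% of all probe sets passed. Without both arrays numbered 1, where 15.6% passed, 1 fell. The CCR4-NOT subunit genes ntl-3 and ntl-9 had the largest differences, -0.41 and -0.28 (limma adjusted p = 0.159 and 0.118), and a second probe set of ntl-3 gave -0.16 (adjusted p = 0.503). For ntl-9 the log2 values were 6.90, 6.90 and 6.80 in the mutant and 7.15, 7.20 and 7.10 in wild type, so the groups did not overlap. With array weights ntl-3 and ntl-9 passed (limma adjusted p = 0.013 and 0.0197). Only ntl-3 of these passed without both arrays numbered 1 (limma adjusted p = 0.0456, against 0.0995 for ntl-9). None of 17 genes of decapping and P bodies passed either under the main setting, with a median of -0.11. There ifet-1, a translational repressor of the germline and a partner of cgh-1, had 8.92, 8.25 and 8.42 in the mutant and 9.77, 9.10 and 8.87 in wild type, a difference of -0.72 (SE 0.27, limma adjusted p = 0.211). With the replicate block ifet-1 passed as lower in the mutant (-0.72, limma adjusted p = 0.0435), as it did with array weights (-0.76, adjusted p = 0.0236) and without both arrays numbered 1 (-0.65, adjusted p = 0.021). The difference of lsm-1 was -0.37. Of 8 genes of nuclear export and cap binding none passed, with a median of -0.04. The export receptor gene xpo-1 differed by 0.34 (adjusted p = 0.318), and its other probe set by 0.35, and ncbp-1 differed by -0.17.

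**Figure D4:**
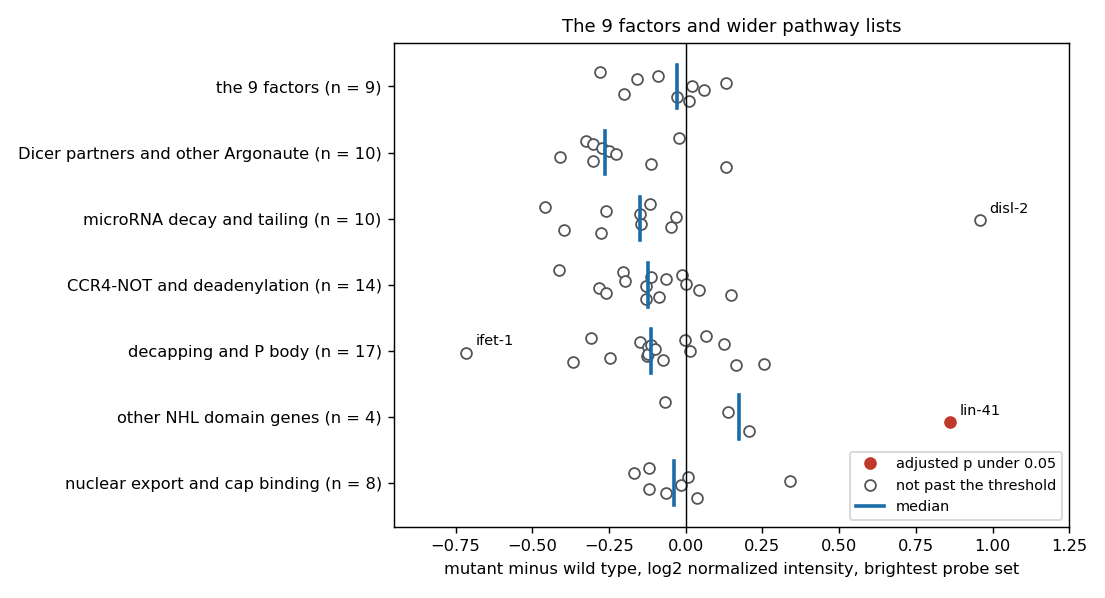
Mutant minus wild type difference in log2 normalized intensity (x axis) of the brightest probe set of each gene, for the 9 factors (top) and 6 lists of genes around them (y axis, with the number measured); points are genes, red points passed an adjusted p under 0.05, and blue bars are medians. The factors lie between -0.28 and 0.13, lin-41 alone is red, and disl-2 and ifet-1 lie farthest out on either side among the others.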

How the data were processed

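Per the file headers and values, the deposited main table gives normalized intensity per array, not log-transformed. A series matrix of log2 values was also deposited, equal to the log2 of that table within 5.66e-06, so it was not a separate alternative. The software was Affymetrix Expression Console, per the submitters' processing notes (version and algorithm: not given in the sources used here). Arrays put on a common scale cannot show a change in total messenger RNA. Of 22625 probe sets 77 controls were left out, with no other filter. Symbols were updated through a WBcel235 gene table, then through the identifier column. Mutant and wild type were compared on log2 values, without a pseudocount, by limma (version 3.58.1, functions lmFit and eBayes, R 4.3.3). Tests were 2-sided, with p-values adjusted by Benjamini-Hochberg over 22548 probe sets and a threshold of 0.05. A gene of a list stood by its brightest probe set among those with 1 gene. Tables were joined with pandas 2.3.3 in Python 3.11.15, and the fit was tested on simulated data.

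All member probe sets are named. From each list around them the genes past the threshold are named, up to 4, or otherwise the 2 with the largest differences. The 3 genes most like alg-1 had the smallest root mean square difference over the 6 arrays. Members, lists, tests and alternatives were chosen with earlier results of these data known. The alternatives were the replicate block, each array left out, both arrays numbered 1 left out, array weights, quantile normalization, median centring, a floor that removed the dimmest 25% or 50%, a pseudocount of 16, an intensity-dependent prior fitted robustly, and gene means over probe sets. Precision is limited by having 3 arrays a group. Genes of the pathway lists not measured are pup-1 and lsm-2. No sequences were used here. The marker lists of late embryo cuticle, neurons and intestine had 5 of 13, 2 of 13 and 2 of 11 measured genes that rose. The list of adult yolk and cuticle had 1 of 9 that rose, and the germline list had 1 of 16 that fell. Over all genes 3.02% rose and 0.631% fell. No gene passed in the lists of maternal and first zygotic transcripts, body wall muscle and sperm (median differences -0.26, -0.31, 0.24 and -0.02). These counts depended on the setting. With array weights 7 of 20 maternal, 6 of 16 zygotic and 6 of 16 germline genes fell. At that setting 3 of 12 muscle, 4 of 13 neuron and 4 of 11 intestine genes rose. In each of these lists except the zygotic one, 1 gene went the other way. Over all 22548 probe sets 18.6% passed with array weights, 2228 as higher and 1967 as lower in the mutant. Without both arrays numbered 1, 6 maternal, 7 zygotic and 4 germline genes fell, 1 germline gene rose, and 5 muscle, 5 neuron and 5 intestine genes rose. Over all probe sets 15.6% passed at that setting, 1955 as higher and 1553 as lower in the mutant.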

Additional observations from a re-analysis of the deposited data

How the results depend on the processing

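No member passed under the main setting, and 1, pash-1, passed without both arrays numbered 1 and with array weights. Over all probe sets 3508 and 4195 passed under these 2 settings and 470 without the dimmest 50%, against 785. Leaving out 1 array gave 109 to 2404 over all probe sets, and 0 to 0 among the members. Of the wider lists 1 gene passed, against 14 with array weights (2 higher and 12 lower), 11 without both arrays numbered 1, 3 with the replicate block (lin-41, disl-2 and ifet-1), 2 without the dimmest 25%, with the trend and robust fit and after quantile normalization, and 0 to 6 with 1 array left out. With gene means the rise of lin-41 was 0.45 and its call was lost (limma adjusted p = 0.0624), while disl-2 passed (adjusted p = 0.0491). Signs turned for cgh-1 (-0.07 and -0.13 with array weights, -0.06 on both after median centring), ain-2 (-0.01 as the mean of its probe sets, -0.05 after median centring, 0.01 after quantile normalization and 0.03 without both arrays numbered 1), alg-2 (-0.01 after median centring) and nhl-2 (0.00 without both arrays numbered 1), and the cause was not tested. With 1 array left out, values ran from -0.31 to 0.39, -0.29 to 0.34 and -0.33 to 0.44 for the alg-1 probe sets, -0.14 to 0.28 and -0.08 to 0.26 for alg-2, -0.13 to 0.08 and -0.17 to 0.12 for cgh-1, -0.03 to 0.06 and -0.11 to 0.03 for ain-2, -0.16 to 0.13 for dcr-1, -0.41 to 0.10 for the dimmer drsh-1 probe set and -0.19 to 0.06 for nhl-2. Deviations from the group means correlated at 0.20, 0.02 and 0.09 between arrays of equal number, and at -0.33 to 0.34 between arrays of unequal number. With 3 arrays in each group these values cannot show whether arrays of equal number were handled together. The replicate block gave 882 calls over all probe sets and none among the members, with pash-1 at -0.28 (limma adjusted p = 0.479).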
